A study of Homo sapiens with 10 samples.

Results

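The genes described here are the 6 transcription factors of the ZEB, SNAI and TWIST families best known for driving the epithelial to mesenchymal transition (EMT): ZEB1, ZEB2, SNAI1, SNAI2, TWIST1 and TWIST2. They were chosen by name, and all 6 were found among the 20098 protein-coding genes of chromosomes 1 to 22 and X in GENCODE release 44, placed on GRCh37 (hg19). For each gene, every peak was taken that shared a base with the gene bounds widened by 50 kb on each side, called its window. A peak was counted at the promoter when it shared a base with any annotated start site of the gene widened by 1 kb.

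The data come from untreated MDAMB231 cells, an established line of triple-negative, mesenchymal-like breast cancer cells. Chromatin was assayed by FAIRE-seq, which recovers DNA depleted of nucleosomes, and by ChIP-seq for H3K4me3, H3K27Ac and H3K4me1, with 2 samples for each assay and 1 input sample for each of the FAIRE and ChIP series, 10 samples in all. The authors gave a single list of peaks for both samples of an assay, so no value below has a replicate error. The lists held 18019 H3K4me3, 37495 H3K27Ac, 26771 H3K4me1 and 46552 FAIRE peaks. A histone peak has a score of minus 10 times the log10 of its MACS p-value, and a FAIRE peak has a height. Among H3K4me3 peaks 56.8% had a score of 3100 or more, and among H3K27Ac peaks 10.5%, so scores at that level do not rank peaks.

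ZEB1 and ZEB2 are zinc finger and homeodomain proteins, and SNAI1 (Snail) and SNAI2 (Slug) are zinc finger proteins; all bind E-box sequences in promoters of epithelial genes such as CDH1, which encodes E-cadherin, and repress them. TWIST1 and TWIST2 are basic helix-loop-helix proteins that bind E-boxes as dimers with E proteins. H3K4me3 marks active or poised start sites, H3K27Ac marks active promoters and enhancers, and H3K4me1 is most typical of enhancers.

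An H3K4me3 peak lay at the promoter of 4 of the 6 genes, ZEB1, ZEB2, SNAI1 and SNAI2, against 67.3% of protein-coding genes by the same rule. These are called marked below, and TWIST1 and TWIST2 unmarked. The share of marked genes was near that of all protein-coding genes. An H3K27Ac peak lay at the promoters of 3 of the 6, ZEB1, ZEB2 and SNAI2, against 63.5% of protein-coding genes. FAIRE peaks were found at 2 promoters, those of ZEB1 and ZEB2, against 39.3%. H3K4me1 was found at 1 promoter, that of ZEB1, against 20%. No peak of any list lay at the promoters of TWIST1 and TWIST2, as at 29.3% of protein-coding genes. ZEB1 and ZEB2 have 21 and 46 annotated start sites, while SNAI1 has 1 and the remaining genes 3 each, so the genes did not have the same chance of a peak near a start.

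**Figure D1:**
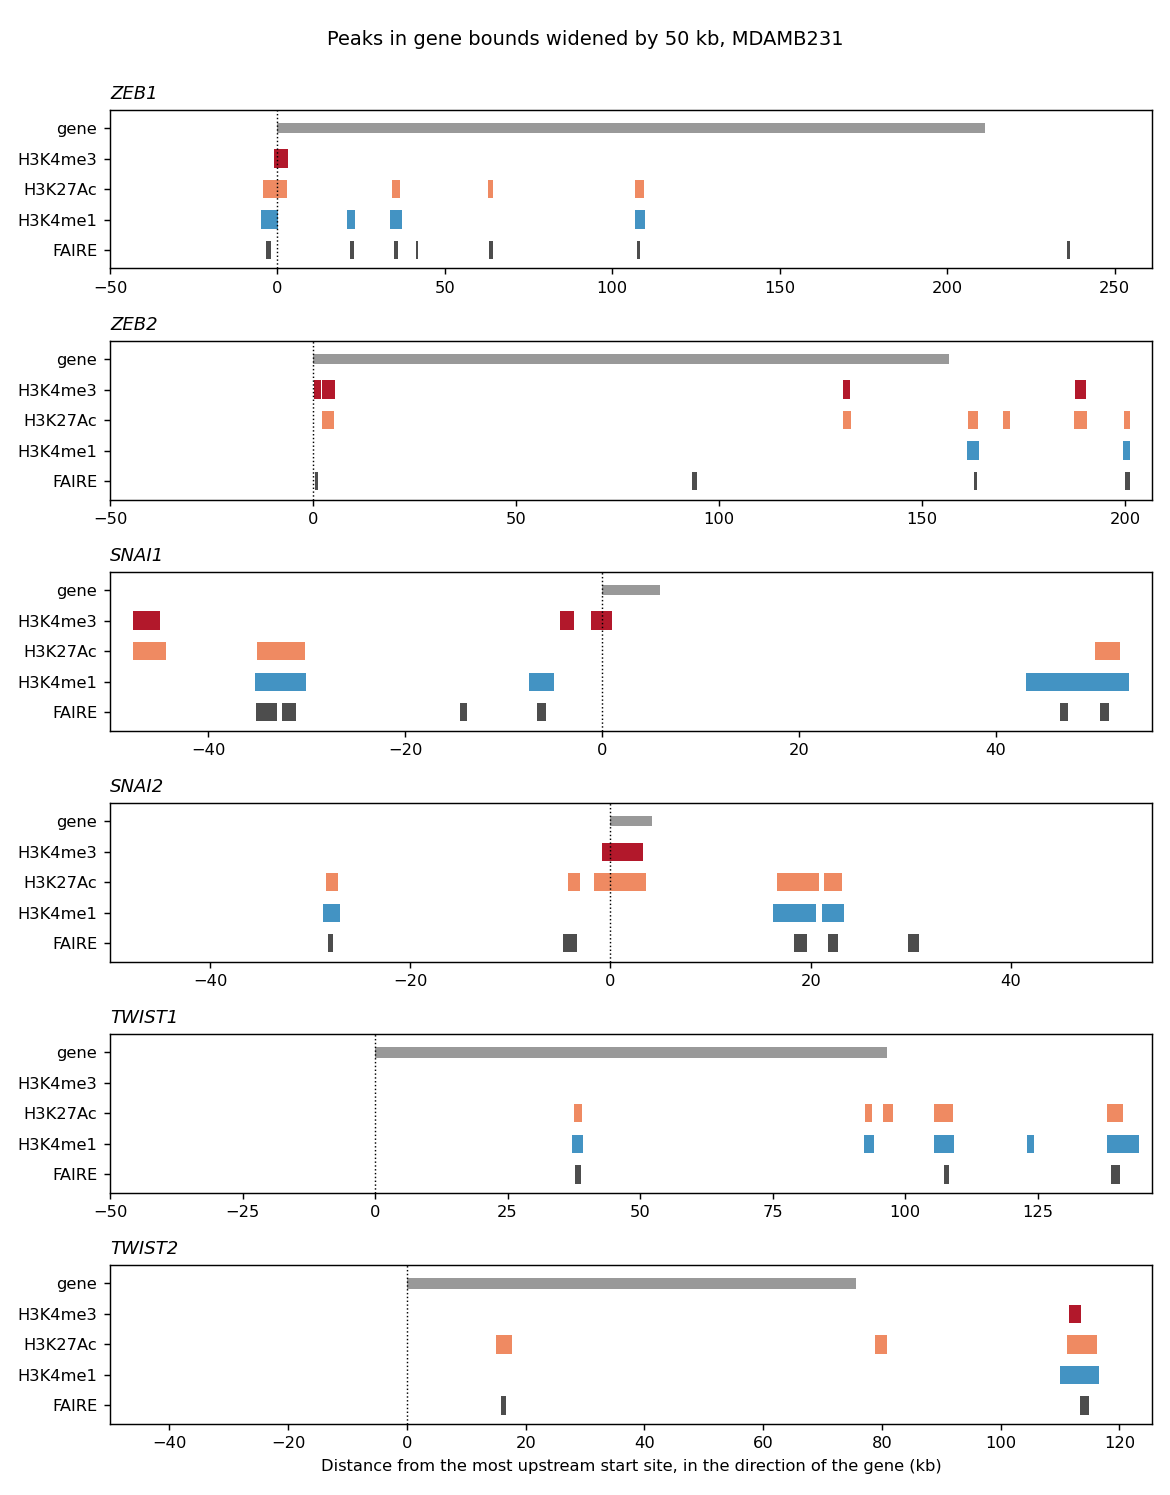
Peaks of the 4 lists in the window of each gene, drawn by distance in kb from the most upstream start site (dotted line) in the direction of the gene, with the gene body in grey and a different horizontal scale in each panel. H3K4me3 lies at the start of ZEB1, ZEB2, SNAI1 and SNAI2, and no peak lies within 1 kb of a start of TWIST1 or TWIST2.

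ZEB1 (ENSG00000148516, chr10:31607424-31818742, plus strand) was the only 1 of the 6 with all 4 lists at the promoter, against 13.1% of protein-coding genes. When the peak centre had to lie in the promoter, ZEB1 had no H3K4me1 there. Its H3K4me3 peak, chr10:31606353-31610561, was 4209 bp wide, wider than 91.3% of H3K4me3 peaks, and had a score of 3100. The H3K27Ac peak there, chr10:31602986-31610401, was 7416 bp wide, wider than 96.3% of its list. H3K4me1 (chr10:31602582-31607629, score 251) lay on the upstream side and reached the first start sites with its edge. The peaks of all 3 marks at the first start sites were also at start sites of the antisense transcript ZEB1-AS1. Another H3K4me1 peak covered a start site further within ZEB1. The nearest FAIRE peak upstream, chr10:31604087-31605530, was 1894 bp from the first start site and so outside the promoter, and the FAIRE call rested on peaks 751 and 100 bp from start sites within the gene. With start sites of protein-coding transcripts alone, ZEB1 had no FAIRE peak at its promoter.

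Promoter sequences of 300 bases, 250 before and 50 after a start, were taken from RefSeq (GRCh38) and placed on GRCh37 by exact match. Of the 6 genes, 3 had entries: ZEB1 with 7, ZEB2 with 1 and TWIST2 with 1. SNAI1, SNAI2 and TWIST1 are named only. The entries below lie at annotated coding starts, in a marked promoter for ZEB1 (chr10:31607895-31608194, plus strand) and ZEB2 (chr2:145277637-145277936, minus strand) and in an unmarked promoter for TWIST2 (chr2:239756476-239756775, plus strand). Capitals mark CACCTG or its reverse complement CAGGTG, an E-box form.
ZEB1 promoter: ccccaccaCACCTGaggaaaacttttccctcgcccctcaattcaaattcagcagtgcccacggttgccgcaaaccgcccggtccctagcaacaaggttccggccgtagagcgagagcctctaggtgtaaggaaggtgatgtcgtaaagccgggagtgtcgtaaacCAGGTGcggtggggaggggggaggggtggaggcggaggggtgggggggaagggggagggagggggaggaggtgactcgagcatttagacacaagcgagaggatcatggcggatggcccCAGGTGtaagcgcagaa
ZEB2 promoter: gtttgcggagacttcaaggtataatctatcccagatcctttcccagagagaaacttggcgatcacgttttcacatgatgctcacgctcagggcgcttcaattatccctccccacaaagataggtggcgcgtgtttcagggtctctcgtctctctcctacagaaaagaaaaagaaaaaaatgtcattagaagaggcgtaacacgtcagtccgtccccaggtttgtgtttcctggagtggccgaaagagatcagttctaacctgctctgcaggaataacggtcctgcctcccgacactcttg
TWIST2 promoter: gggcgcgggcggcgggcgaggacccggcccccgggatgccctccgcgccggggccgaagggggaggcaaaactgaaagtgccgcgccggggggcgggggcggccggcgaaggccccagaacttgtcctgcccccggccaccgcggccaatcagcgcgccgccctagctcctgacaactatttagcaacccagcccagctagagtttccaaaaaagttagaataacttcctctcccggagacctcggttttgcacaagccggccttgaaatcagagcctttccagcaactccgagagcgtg
CACCTG on either strand occurred 3 times in the ZEB1 sequence shown and in 2 of its 7 entries, and was in 20.6% of the 35116 RefSeq promoters. It was not found in the ZEB2 and TWIST2 entries. The general E-box CANNTG, which includes the other forms, was in 4 of the 7 ZEB1 entries and in the ZEB2 entry, not in the TWIST2 entry, and in 68.7% of all promoters. CATCTG, with reverse complement CAGATG, was in 1 ZEB1 entry and in 14.7% of all promoters. A match describes these letters and not binding.

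ZEB2 (ENSG00000169554, chr2:145121931-145278624, minus strand) had 2 H3K4me3 peaks at its promoter. The stronger, chr2:145273327-145276498, had a score of 3100 and overlapped the H3K27Ac peak chr2:145273577-145276431 (score 1322), which began 2193 bp from the most upstream start site. The weaker, chr2:145276663-145278425 (score 505), lay nearer that start, with no H3K27Ac, and overlapped the FAIRE peak chr2:145277302-145278057, whose height of 40.5 was above 14.6% of FAIRE peaks. The RefSeq promoter shown above lay within that FAIRE peak. A further H3K4me3 peak with H3K27Ac lay in an exon 131.4 kb into the gene (chr2:145146434-145148039, score 803), 5989 bp from any ZEB2 start. The antisense transcript ZEB2-AS1 starts in the same promoter.

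SNAI1 (ENSG00000124216, chr20:48599517-48605423, plus strand) had H3K4me3 alone at its single start site (chr20:48598414-48600519, score 1966). Among protein-coding genes with H3K4me3 at a promoter, 8.98% had no H3K27Ac there. The nearest H3K27Ac peak to the SNAI1 start was 30.1 kb away, at chr20:48564451-48569368 within the neighbouring gene RNF114. H3K4me1 and FAIRE came closer, 4904 and 5699 bp upstream, where H3K4me1 of score 59.8 overlapped a FAIRE peak of height 93.6, above 82.2% of FAIRE peaks. A weak H3K4me3 peak (score 182) lay between them and the start.

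SNAI2 (ENSG00000019549, chr8:49830157-49834299, minus strand) had overlapping H3K4me3 (chr8:49831002-49835189, score 1642) and H3K27Ac (chr8:49830703-49835962, score 719) across most of the short gene. The H3K4me3 peak was 4188 bp wide, wider than 91.1% of its list. No FAIRE peak lay at the promoter, as in 40.4% of protein-coding genes with both marks there. The nearest FAIRE peak (height 77.7) was 3372 bp upstream, at the start site of the long noncoding RNA ENSG00000287788. Another such RNA, ENSG00000288761, starts 63 bp from a SNAI2 start and had H3K4me3 and H3K27Ac at its promoter. The H3K27Ac peak of highest score in the SNAI2 window was not at the promoter but 16.4 kb downstream, chr8:49813501-49817629, with a score of 3125, in the range where scores do not rank peaks. H3K4me1 (score 260) and 2 FAIRE peaks that adjoin with no gap overlapped it.

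TWIST1 (ENSG00000122691, chr7:19060614-19157259, minus strand) had no H3K4me3 peak in its window, and the nearest lay 590 kb from its start sites. Its bounds of 96.6 kb include a long annotated transcript. The other lists were not empty: the window held 5 H3K27Ac, 5 H3K4me1 and 4 FAIRE peaks. The nearest to the TWIST1 start sites was an intronic region 36.4 kb away with weak H3K27Ac (score 102), H3K4me1 (58.3) and a FAIRE peak of height 85.6. The strongest, chr7:19016118-19019240 (H3K27Ac score 1341), lay 137 kb away within HDAC9, with H3K4me1 of score 413 and a FAIRE peak of height 114.

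TWIST2 (ENSG00000233608, chr2:239756673-239832230, plus strand) had an intronic H3K27Ac peak 14.9 kb from its start sites (chr2:239771727-239774448, score 994), which overlapped a FAIRE peak of height 86.1 but no H3K4me1. All 4 lists met at a region 110 kb away, chr2:239866697-239873183, beyond the end of the gene, with H3K27Ac of score 3100, H3K4me3 of score 540, H3K4me1 of score 235 and FAIRE of height 108. No annotated start site lay within 1 kb of that H3K4me3 peak; the nearest, of LINC01940, was 20287 bp away.

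Intronic regions with H3K27Ac and FAIRE were found in ZEB1, which is marked, and in TWIST1 and TWIST2, which are not. Sequences are shown for ZEB1 and TWIST2. The 300 bases at the centre of the FAIRE peak under the highest intronic H3K27Ac score of each are shown from GRCh37, plus strand: chr10:31715170-31715469 in ZEB1, where H3K27Ac had a score of 902, and chr2:239772844-239773143 in TWIST2. Capitals mark TGANTCA, a pattern that is wider than the AP-1 consensus TGACTCA and includes it. The pattern reads the same on both strands and, like these regions, was chosen after values were seen.
ZEB1 FAIRE centre: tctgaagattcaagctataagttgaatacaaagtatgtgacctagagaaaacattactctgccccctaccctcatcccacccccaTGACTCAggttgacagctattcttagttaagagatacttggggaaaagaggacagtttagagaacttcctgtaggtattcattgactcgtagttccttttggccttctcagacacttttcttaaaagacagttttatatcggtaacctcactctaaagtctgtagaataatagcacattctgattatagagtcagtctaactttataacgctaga
TWIST2 FAIRE centre: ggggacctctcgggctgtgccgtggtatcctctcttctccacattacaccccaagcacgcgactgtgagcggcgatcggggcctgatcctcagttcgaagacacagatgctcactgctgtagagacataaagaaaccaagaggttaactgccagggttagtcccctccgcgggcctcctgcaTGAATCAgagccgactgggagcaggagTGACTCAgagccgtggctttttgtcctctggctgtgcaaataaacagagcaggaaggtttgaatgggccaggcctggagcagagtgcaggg
TGANTCA occurred 1 time in the ZEB1 region, as TGACTCA. In the TWIST2 region it occurred 2 times, as TGAATCA and as TGACTCA. The wider pattern TGANTCA was in the central 300 bases of 39.1% of 46536 FAIRE peaks and in 7.71% of RefSeq promoters. CACCTG was in neither region and in 16.8% of FAIRE peaks.

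The 6 windows held 10 H3K4me3, 26 H3K27Ac, 19 H3K4me1 and 30 FAIRE peaks, 85 in all. H3K4me3 was found in 5 of 6 windows, against 85.4% of protein-coding genes. H3K27Ac, H3K4me1 and FAIRE were found in 6 of 6, against 86.7%, 62.7% and 85.1%. With 20 kb H3K4me3 was found in 4, H3K27Ac and H3K4me1 in 5 each and FAIRE in 6 of the 6, against 79%, 80.1%, 48.6% and 74.1%. Within gene bounds alone H3K4me3 was found in 4, H3K27Ac in 5, H3K4me1 in 2 and FAIRE in 4 of the 6, against 69.9%, 68.9%, 33.1% and 53.8%. Long genes have wide windows, so the share of the window covered was also compared. H3K4me1 covered a median of 6.11% over the 6 windows, against 2.44% over all protein-coding genes, and 5 of 6 genes were above that median. SNAI1 had the highest H3K4me1 share, 17.2%, above 96.3% of protein-coding genes, but 3 of its 4 H3K4me1 peaks had scores under 100. With scores of 100 or more its share was 4.93%, below the 5.01% of TWIST1, and with bounds widened by 20 kb it was 5.59%, below the 14.7% of SNAI2. SNAI1 also had the highest FAIRE share, 6.51%, above 96.0%, and was highest with the taller FAIRE peaks (3.79%) but below SNAI2 with 20 kb (3.47% against 8.45%). SNAI2 had the highest H3K27Ac share, 13.0%, above 79.0%, and was below SNAI1 with scores of 100 or more (9.02% against 10.3%). With 20 kb the SNAI2 share was 28.2%, above 95.3% of protein-coding genes, and that of SNAI1 was 0. For H3K4me3 the median was 2.49% against 3.62%, for H3K27Ac 5.67% against 6.17%, and for FAIRE 2.09% against 1.84%.

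**Figure D2:**
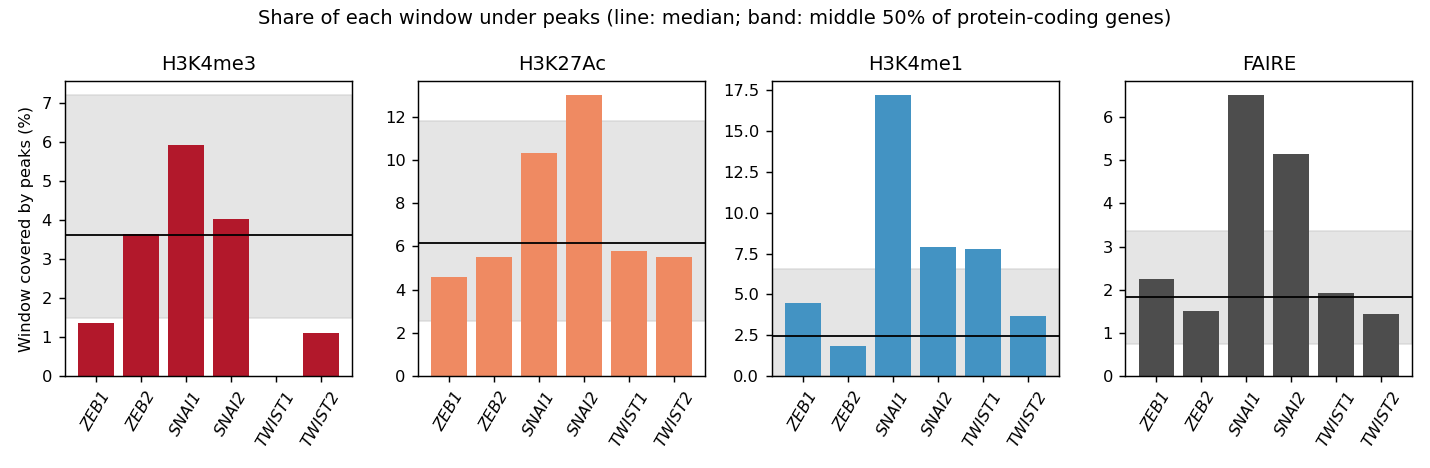
Percent of each window covered by peaks of each list, 1 bar per gene, with the median (line) and middle 50% (band) of protein-coding genes. In these 50 kb windows, with all peaks, H3K4me1 and FAIRE shares were highest for SNAI1, an order that changed with stricter peaks (H3K4me1) and 20 kb windows (both), and TWIST1 has no H3K4me3.

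Peaks that share a base were joined into 38 regions. Of these, 13 had H3K27Ac and H3K4me1 without H3K4me3, the usual marks of active enhancers, against 28.2% of the 55522 regions joined in the same way over the genome. FAIRE was in 12 of the 13, against 84.7% of such regions over the genome. At least 1 such region was in the windows of 5 of the 6 genes, against 43.5% of protein-coding genes. TWIST1 had 4 such regions and SNAI2 had 3. ZEB1, ZEB2 and SNAI1 had 2 each, and TWIST2 had 0. Of the ZEB1 regions 1 lay at a ZEB1 start site (chr10:31640937-31644691). Of the ZEB2 regions 1 lay at a GTDC1 start site (chr2:145077403-145079148). Per 100 kb of window SNAI2 had the most, 2.88, above 97.8% of protein-coding genes, and TWIST1 had 2.03, above 94.2%. That order changed with stricter peaks, which left 1 region for SNAI2, 0.96 per 100 kb, and 2 for TWIST1, 1.02 per 100 kb. With stricter peaks ZEB1 had 2 regions and ZEB2 and SNAI1 had 1 each. With 20 kb SNAI2 had the most again, 4.53 per 100 kb against 2.2 for TWIST1, and SNAI1 had 0. For 19 of the 85 peaks the nearest protein-coding start belonged to another gene: 9 in the ZEB2 window to GTDC1, 6 in the SNAI1 window to RNF114 and 4 in the TWIST1 window to HDAC9. Which gene a peak acts on was not tested.

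Of protein-coding neighbours with a start site in a window, GTDC1 near ZEB2 had all 4 lists at its promoter and RNF114 near SNAI1 had H3K4me3 and H3K27Ac. FERD3L, a helix-loop-helix gene 27.8 kb from TWIST1, had none, like TWIST1 itself.

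CpG-rich promoters usually carry H3K4me3. A promoter was called CpG-rich at an observed over expected CpG ratio of 0.6 or more and GC of 50% or more, over the bases within 1 kb of any start site, a cut chosen after values were seen. By this rule 3 of 6 genes were CpG-rich, SNAI1, TWIST1 and TWIST2, against 15.9% of protein-coding genes. That share depended on joining all starts of a gene: around the most upstream start alone, 4 of 6 genes against 46.9% of protein-coding genes were CpG-rich in the 1 kb on each side, and 5 of 6 against 57.7% in the 500 bp on each side, with ZEB1 and SNAI2 added. Over the joined bases the unmarked genes had the highest ratios, 0.83 for TWIST2 and 0.78 for TWIST1, and were also highest in the windows around the most upstream start alone. The ratios were 0.74 for ZEB1, 0.67 for SNAI2, 0.64 for SNAI1 and 0.41 for ZEB2. At single starts the order differed: the highest ratio was 1.03 for ZEB1 and 0.86 for ZEB2, above the 0.85 of TWIST2 and 0.83 of TWIST1, and 14 of 21 ZEB1 starts and 15 of 46 ZEB2 starts were CpG-rich. Of protein-coding genes with a CpG-rich promoter, 81.0% had an H3K4me3 peak at a start and 18.5% had no peak of any list, as TWIST1 and TWIST2. Other marks of silent CpG-rich promoters, such as H3K27me3 and DNA methylation, were not analysed here.

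**Figure D3:**
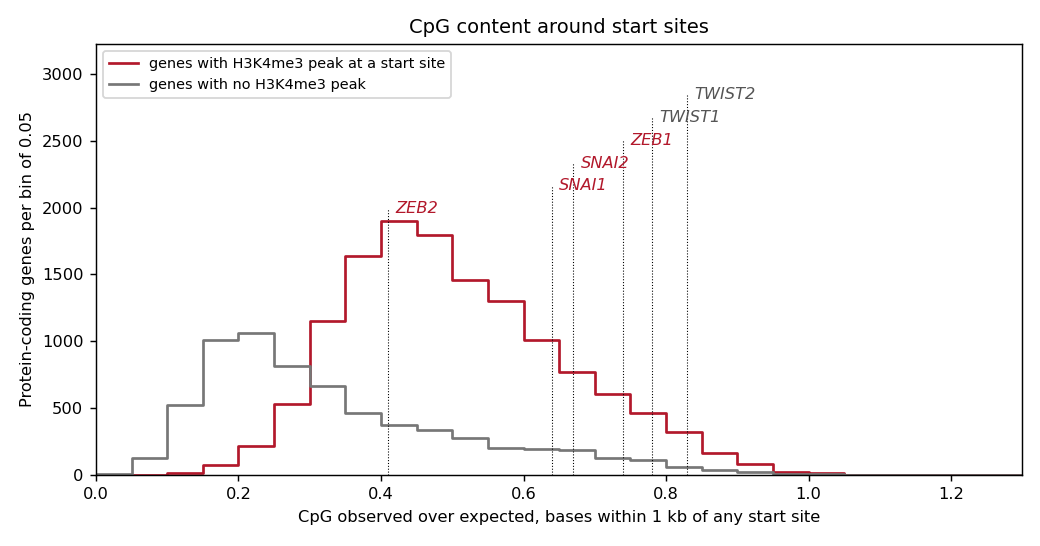
Number of protein-coding genes by CpG observed over expected ratio near start sites, in bins of 0.05, for genes with (red) and without (grey) an H3K4me3 peak there, with dotted lines at the 6 genes (red names, marked). TWIST1 and TWIST2, at 0.78 and 0.83, lie in the upper part of both distributions.

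By annotated bounds, which for TWIST1 include a long transcript, the unmarked TWIST1 and TWIST2 were 96.6 and 75.6 kb long. Of the marked genes, SNAI1 and SNAI2 were shorter (5.91 and 4.14 kb) and ZEB1 and ZEB2 longer (211 and 157 kb). Whether gene length bears on the marks was not tested. By the percent of window covered in the 4 lists, the 2 protein-coding genes most like each gene were NGB and RFX7 for ZEB1, INTS2 and LCT for ZEB2, PRPS1 and MCF2L2 for SNAI1, PRR15L and POLR3A for SNAI2, ARL14 and GPR18 for TWIST1, and CRMP1 and EDNRB for TWIST2. SNAI1 was the farthest from its nearest gene, at 1.65 percentage points, and TWIST2 the closest, at 0.217.

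Genes that work with these factors were read by the same promoter rule. By that rule 67.3% of protein-coding genes had H3K4me3 and 63.5% had H3K27Ac. Among 11 relatives of the SNAI and TWIST genes, 2 had H3K4me3, SNAI3 and HAND1, and 0 had H3K27Ac. Of 14 other EMT factors, 10 had H3K4me3, or 71.4%, near the share of protein-coding genes. PRRX2, FOXC2, GSC and TCF4 did not have it. All 15 genes of the list of partners and corepressors, such as CTBP1 and the E protein TCF12, had H3K4me3 and H3K27Ac. The E proteins TCF3 and TCF4 were in the list of other EMT factors, and TCF4 had no peak of any list at its promoter. H3K4me3 and H3K27Ac were also found at 13 of 13 genes that control the stability of the proteins, such as GSK3B and FBXL14, and at 15 of 15 genes of upstream signals, such as TGFB2 and TGFBR2. With the most upstream start alone each mark was at 14 partners, 13 stability genes and 13 upstream signals. The shares of protein-coding genes were then 61.7% and 57.5%. With peak centres these counts were 13, 12 and 13 for H3K4me3, against 64.7%. For H3K27Ac they were 14, 12 and 11, against 57.7%.

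Of 25 epithelial genes, 18 had H3K4me3 and 13 had H3K27Ac, 72% and 52%, against 67.3% and 63.5% of protein-coding genes. Those without H3K4me3 were CDH1, OVOL1, GRHL2, CRB3 and the microRNA genes MIR200A, MIR200B and MIR429, whose annotated starts are those of the hairpins. CDH1 had H3K27Ac and FAIRE at its promoter. Of 14 mesenchymal genes, 10 had H3K4me3 and 10 had H3K27Ac, 71.4% for each mark. CDH2, SPARC, MMP2 and COL5A2 lacked H3K4me3. With the most upstream start alone, 15 epithelial and 8 mesenchymal genes had H3K4me3, against 61.7%, and 10 and 9 had H3K27Ac, against 57.5%. With peak centres 14 and 9 had H3K4me3, against 64.7%, and 10 and 7 had H3K27Ac, against 57.7%. With promoters of 2.5 kb 19 and 10 had H3K4me3, against 68.3%, and 14 and 13 had H3K27Ac, against 65.2%. FAIRE was at 7 of the 25 epithelial and 9 of the 14 mesenchymal promoters, 28% and 64.3%, against 39.3% of protein-coding genes. With promoters of 2.5 kb the epithelial and mesenchymal FAIRE counts were 11 and 12, against 44.4% of protein-coding genes. With the most upstream start alone they were 3 and 6, against 30.6%, and with taller peaks 4 and 7, against 24.4%. The epithelial list holds 5 microRNA genes, and of its 20 protein-coding genes 16 had H3K4me3, 11 had H3K27Ac and 7 had FAIRE. Whether the lists differ was not tested.

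Markers of cell types were read by the same rule. Their lists were chosen with earlier results of these data known, so they are no independent check of the line. All 6 markers of the line, VIM, CD44, EGFR, CAV1, AXL and PLAU, had all 4 lists at the promoter, against 13.1% of protein-coding genes. With the most upstream start alone 4 of the 6 had H3K4me1 and 4 had FAIRE, against 11.9% and 30.6% of protein-coding genes. With peak centres 4 had H3K4me3, 5 had H3K27Ac and 5 had H3K4me1. The shares of protein-coding genes with peak centres were 64.7%, 57.7% and 8.64%. Of 8 luminal markers, 7 had H3K4me3 (TFF1 did not) and 5 had H3K27Ac, against 67.3% and 63.5% of protein-coding genes. With the most upstream start alone these were 4 and 3, against 61.7% and 57.5%. Of 5 blood markers, CD14 alone had H3K4me3, and 0 had H3K27Ac. Of 4 endothelial markers 3 were matched in the annotation, and 0 had a peak of any list. With promoters of 2.5 kb, CDH5 had H3K27Ac and H3K4me1 and PTPRC had H3K27Ac.

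**Figure D4:**
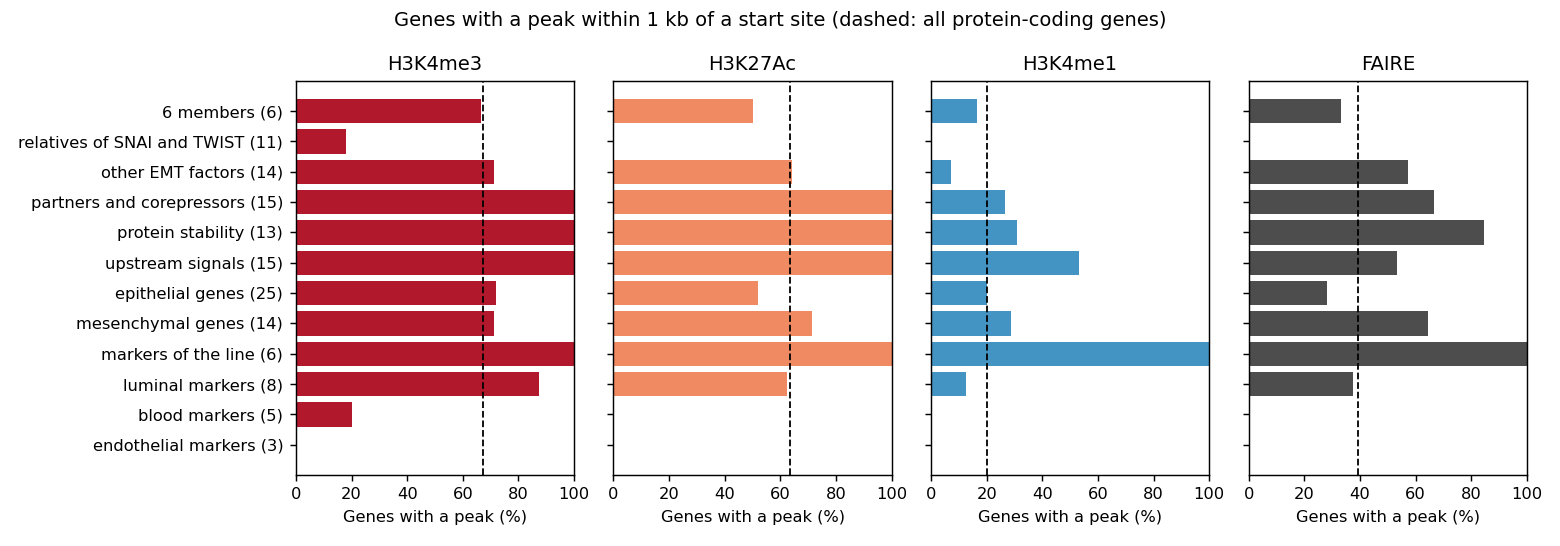
Percent of genes with a peak within 1 kb of a start site, for the 6 genes and each gene list (number of genes in brackets), with a dashed line at all protein-coding genes. Relatives of the SNAI and TWIST genes and the blood and endothelial markers are below the line for H3K4me3, and partners, stability genes and upstream signals are at 100%.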

How the data were processed

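The deposited histone lists hold a score, minus 10 times the log10 of the p-value from MACS, which the authors ran against input at default settings. The deposited FAIRE list holds the height of the signal in each peak, as FindPeaks gave it to the authors. Its name calls the entries subpeaks. Some adjoin with no gap, as in the SNAI2, TWIST1 and TWIST2 windows, and were counted as separate peaks. Reads had been aligned to hg19 with BWA, duplicates and reads of low mapping quality removed with Samtools, and the samples of an assay analysed separately and then combined, at a step not given in the sources used here. Read depth was not used here.

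Overlaps of at least 1 base, coverage and distances were computed with Python, numpy and pandas and checked on simulated intervals. No test was run, because genes are not replicates. The alternatives were promoters of 500 bp and 2.5 kb, coding or most upstream starts alone, windows of 20 kb, 100 kb or the gene alone, histone scores of 100 or more, FAIRE heights at or above the median, and peak centres. The members and lists were chosen with earlier results of these data known. Named genes were the 6 factors, coding neighbours, the 2 most similar genes, and from each list those with H3K4me3 where 6 or fewer, otherwise those without; other examples, the TGANTCA motif, the intronic sequences and the CpG-rich cut were chosen after values were seen.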

Additional observations from a re-analysis of the deposited data

How the results depend on the processing

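The 4 genes with H3K4me3 at the promoter were ZEB1, ZEB2, SNAI1 and SNAI2 under all 6 alternatives, against 61.7% to 68.3% of protein-coding genes. The H3K27Ac call of ZEB2 was lost with the most upstream start alone, which left 2 genes, against 57.5%. FAIRE promoters fell from 2 to 1 with coding starts alone (ZEB2), with the most upstream start alone (ZEB2) and with peaks of at least median height (ZEB1). The FAIRE shares of protein-coding genes at these settings were 35.5%, 30.6% and 24.4%, from 39.3%. The H3K4me1 promoter count fell from 1 to 0 when the peak centre had to lie in the promoter, against 8.64% of protein-coding genes. Over the lists, promoter H3K4me1 fell from 33 to 17 of 129 entries with the most upstream start alone. Over protein-coding genes it fell from 20% to 11.9%. Among luminal markers, that setting took H3K4me3 from 7 to 4, H3K27Ac from 5 to 3 and FAIRE from 3 to 1. Over protein-coding genes these fell from 67.3% to 61.7%, from 63.5% to 57.5% and from 39.3% to 30.6%. With 2.5 kb, 1 endothelial marker gained H3K27Ac and H3K4me1 and 1 blood marker gained H3K27Ac. The shares of protein-coding genes with 2.5 kb were 65.2% for H3K27Ac and 23.1% for H3K4me1.

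Windows with a peak fell from 5 to 4 genes for H3K4me3 and from 6 to 5 for H3K27Ac and H3K4me1 with 20 kb, and stayed at 6 for FAIRE. Window totals followed the size of the window: within gene bounds alone there were 6 H3K4me3, 11 H3K27Ac, 6 H3K4me1 and 9 FAIRE peaks. With 20 kb there were 11 H3K4me1 and 18 FAIRE peaks, and with 100 kb 30 H3K4me1 peaks. Stricter peaks left 9 H3K4me1 and 15 FAIRE peaks. Of the 24 counts for a gene and a list, 17 moved by over 1.5 times with gene bounds alone, 9 with 20 kb, 6 with 100 kb, 9 with stricter peaks and 0 with peak centres. CpG-rich genes numbered 5 of 6 (57.7% of protein-coding genes) in the 500 bp around the most upstream start and 4 (46.9%) in the 1 kb around it. Of 24 covered shares, 8 moved by over 1.5 times with stricter peaks and 10 with 20 kb. Of the 6 counts of regions with H3K27Ac and H3K4me1 without H3K4me3, 4 moved with stricter peaks and 2 with 20 kb. The alternatives for CpG, covered shares and these regions were added once the values were known.

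No paired analysis was possible because the samples of an assay share a list, and none was left out in turn. A promoter without a peak is one with no call at the authors' threshold, not one shown to lack the mark.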
